A study of Homo sapiens with 24 samples.

Results

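The genes of the NF-kB system examined here were the 5 subunits NFKB1, NFKB2, REL, RELA and RELB, the inhibitors NFKBIA and TNFAIP3, and BCL10 and MALT1 of the CBM complex. These 9 genes were chosen by name from 19970 protein-coding genes. Each was joined to every super-enhancer of OCI-Ly7 cells that overlapped its gene body extended by 50 kb on each side, and to the nearest one where there was none. Of 2615 super-enhancers, 4 met that rule: 1 each for NFKB2, REL, RELB and NFKBIA. NFKB1, RELA, TNFAIP3, BCL10 and MALT1 had none.

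OCI-Ly7 is an established line from a human lymphoma, a diffuse large B-cell lymphoma resembling germinal centre B cells. The study profiled H3K4me1, H3K27ac and H3K4me3 by CUT&RUN, in which an antibody-tethered nuclease releases the marked chromatin for sequencing, in isogenic clones of 4 genotypes: WT, homozygous CREBBP R1446C knock-in (C), homozygous KMT2D knockout (K), and both together (CK). There were 24 samples, 2 for each mark and genotype. The table used here was made from H3K27ac in WT cells alone, with 1 signal column for both libraries together, so no value has a replicate error, no difference could be tested, and the other 22 samples have no value here. All clones derive from 1 line, and the study's methods call the 2 samples per genotype biological replicates without saying more in the sources used here. As a check of the cell type, 6 of 7 B-cell and germinal centre marker genes had a super-enhancer within 50 kb, among them PAX5 and BCL6, whereas CD22 had none. Of 8 T-cell marker genes, 1 (LCK) had one. By the same rule 30.7% of all 19970 protein-coding genes had one, and the marker counts were not tested against that share.

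NF-kB is a family of dimeric transcription factors that inhibitors of the IkB family hold in the cytoplasm. In the canonical pathway the CBM complex, which holds BCL10 and MALT1 and acts below the B-cell receptor, leads to activation of the IKK kinases, which mark NFKBIA protein for destruction and release RELA and REL dimers. The non-canonical pathway, below receptors such as CD40 and the BAFF receptor, processes the NFKB2 precursor and activates RELB. The dimers bind a short DNA element, the kappa B site, and both NFKBIA and TNFAIP3 (the protein A20) are textbook NF-kB target genes that feed back on the pathway.

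Matches to the kappa B site at the gene starts are shown first, because most members with a promoter sequence held one. The members were chosen by name as NF-kB genes, and the known targets NFKBIA and TNFAIP3 are among them. Their share of matches is therefore a description and no independent evidence. A kappa B consensus of 10 bases and a stricter form, GGGANTTTCC, were searched on both strands, and every match to the stricter form is also a match to the consensus. The search covered the 250 bases before each RefSeq start in hg38 (GRCh38.p14). Of the 9 members, 8 were matched in the RefSeq promoter table, all but RELB. A consensus match was present in 6 of these 8 genes (75%), beside 38.4% of 15812 protein-coding genes, and RELA and MALT1 had none. The stricter form was present in 5 of the 8 (62.5%), namely NFKB1, NFKB2, REL, NFKBIA and TNFAIP3, beside 0.632% of all genes. BCL10 had consensus matches alone. These are matches of letters in a fixed window. Binding was not measured.

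The NFKBIA promoter is given whole, since it lies inside a super-enhancer and outside any annotated UTR; it reads 5′ to 3′ on the minus strand at chr14:35404750-35404999, with the match at −81 to −72 from the start in capitals.
NFKBIA promoter: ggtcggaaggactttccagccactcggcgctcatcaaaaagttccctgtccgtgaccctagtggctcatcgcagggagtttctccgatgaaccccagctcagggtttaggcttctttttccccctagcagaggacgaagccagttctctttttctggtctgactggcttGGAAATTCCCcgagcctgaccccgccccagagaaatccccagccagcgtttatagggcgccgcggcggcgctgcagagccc

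For the other genes with a match, 30 bases around chosen matches, the stricter ones among them, are given in the sense of the gene, with the match in capitals, at chr4:102501300-102501329 for NFKB1, chr2:60881517-60881546 for REL, chr10:102394461-102394490 and chr10:102395674-102395703 for NFKB2, chr6:137867182-137867211 for TNFAIP3 and, on the minus strand, chr1:85276752-85276781 for BCL10.
NFKB1, −49 to −40: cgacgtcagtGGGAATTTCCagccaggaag
REL, −47 to −37: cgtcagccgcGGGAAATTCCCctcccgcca
NFKB2, −107 to −97 of its second listed start: gaaacgtcatGGGAATTCCCCcctccgggg
NFKB2, −21 to −12 of its last listed start: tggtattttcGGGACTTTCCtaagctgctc
TNFAIP3, −67 to −58: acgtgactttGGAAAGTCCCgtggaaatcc
BCL10, −139 to −130: cgtggcttgaGGAAACGCCCgctgtgggcg

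In REL and at the second start of NFKB2, a pair of matches set off by 1 base covers 11 bases. TNFAIP3 held a second consensus match at −55 to −46, which begins inside the stretch shown. Further consensus matches, not printed, lay at −120 to −111 in BCL10, at −141 to −132 of the first and −193 to −184 of the second listed start of NFKB1, and at −78 to −68 of the second and −176 to −167 of the last listed start of NFKB2. NFKB2 had 3 listed starts, and the window before the first of them held no match, whereas that before the second held 4 and that before the last held 2. By the GENCODE annotation, the REL match and those at the second NFKB2 start lie in a 5′ UTR, and GENCODE places the start of REL 83 bases upstream of the RefSeq start. GC content was high in most of these windows: 79.6% for REL, 72% for NFKB1 and 74% for TNFAIP3, but 59.2% for NFKBIA. The median over all promoters was 62%. Windows without a match could be as rich, with 78.8% for MALT1 and 79.2% for a RELA window, whereas another RELA window had 48.4%.

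The subunits were examined next. A super-enhancer in the sense of the ROSE algorithm is a stretch in which H3K27ac peaks within 12.5 kb of each other are joined and whose summed signal lies above a cutoff, which was 10617 in this table. H3K27ac marks active enhancers and promoters. Signal is the sum over the whole stitched region, in a unit that the table does not state, and rank 1 is the highest sum. Of the 5 subunits, 3 had a super-enhancer within 50 kb, and of the 9 members 4 (44.4%), beside 30.7% of all protein-coding genes.

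NFKB2, the precursor of p52 in the non-canonical pathway, had the highest-ranked region of the members. It ran over 102.6 kb, at chr10:102311126-102413743, with a signal of 37414, rank 442 and 25 constituent peaks. That signal was 3.52 times the cutoff and lay at the percentile of 83.1 among all regions. The gene body, chr10:102394110-102402524 on the plus strand, lay wholly inside the region, which reached from −83.0 kb to 19.6 kb of the NFKB2 start, taken in the direction of transcription. Most of its length lay over GBF1, upstream of NFKB2, and it also reached PSD, and introns made up 59.1% of its length and exons 29.9%. The bodies of 8 protein-coding genes lay within 50 kb of it, and the summed signal cannot be divided among them. NFKB2 was nonetheless the gene whose start lay nearest, inside the region.

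REL encodes c-Rel, the subunit long tied to B-cell lymphoma by amplification. Copy number in OCI-Ly7 was not examined here. The REL region, chr2:60792564-60878013, had a signal of 33590 and rank 549 over 85.5 kb and 26 constituents. It lay wholly upstream and ended 3.48 kb before the REL gene body, chr2:60881491-60931612. Few of its bases were in protein-coding genes, 88.9% lying outside them, and it overlapped PAPOLG at its far end and the divergent long non-coding RNA REL-DT. REL and PAPOLG were the 2 protein-coding genes within 50 kb, and REL had the nearest start.

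RELB, the partner of p52, had the weakest of the 4 regions by summed signal. Its region, chr19:44948956-44981746, had a signal of 19205, rank 1352 and 11 constituents over 32.8 kb. It ended 19.7 kb upstream of RELB, chr19:45001461-45038192. It overlapped APOC4-APOC2, APOC2 and CLPTM1, and CLPTM1, not RELB, had the nearest start, which lay inside it. RELB therefore counts by the window alone.

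RELA and NFKB1, which encode p65 and the p50 precursor of the classical dimer, had no region within 50 kb. The nearest to RELA, chr11:65516805-65566668, lay 86.9 kb downstream with a signal of 20957 (rank 1191), and overlapped LTBP3. NFKB1 is the longest of the members, with a body of 116.0 kb at chr4:102501330-102617302, and its nearest region, chr4:102854956-102873564, lay 237.7 kb downstream over UBE2D3 and CISD2. That region, with a signal of 11420 and rank 2435, stood only 1.08 times above the cutoff, and upstream of NFKB1 the next region was 2624 kb away.

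**Figure D1:**
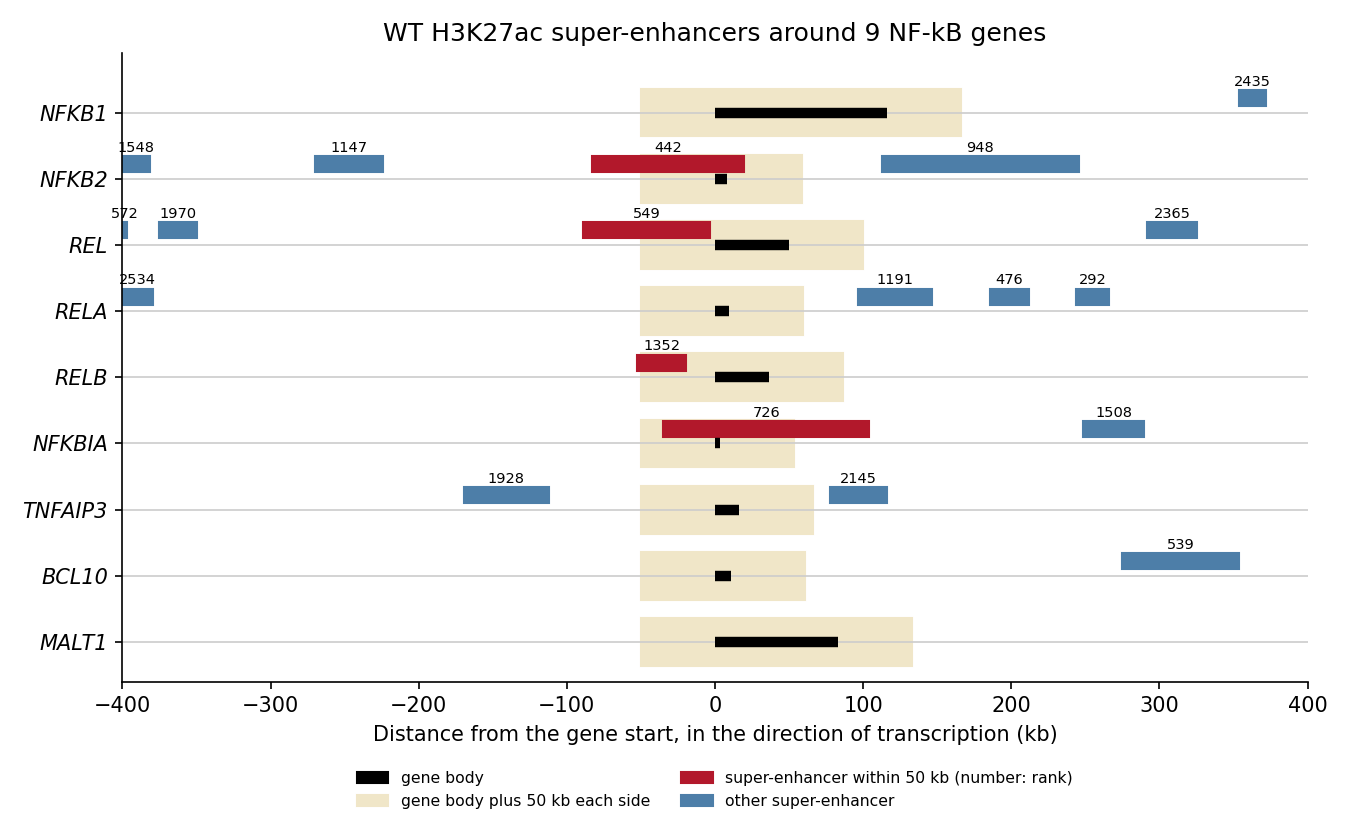
Super-enhancers within 400 kb of the start of each of the 9 genes (x axis, distance from the gene start in kb in the direction of transcription; numbers are ranks among 2615 regions). Red regions lie within 50 kb of the gene body: 1 each for NFKB2, REL, RELB and NFKBIA. The region nearest to MALT1, 1081 kb away, is outside the plot.

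The 2 inhibitors differed in how near a region lay. NFKBIA, which encodes IkB alpha, is the shortest member at 3.67 kb (chr14:35401079-35404749, minus strand), and lay wholly inside the longest of the 4 regions. That region, chr14:35300746-35439657, spanned 138.9 kb with 31 constituents, a signal of 29102 and rank 726. It reached from −34.9 kb to 104 kb of the NFKBIA start, taken in the direction of transcription, and 85.3% of it lay outside protein-coding genes. PSMA6, a proteasome subunit gene, and the gene ENSG00000258790 were also overlapped. NFKBIA had the nearest start.

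TNFAIP3 encodes A20, a ubiquitin-editing brake of the pathway that is often inactivated in B-cell lymphoma. No region lay within 50 kb of its body, chr6:137867214-137883314, but regions lay on both sides. The nearer one, chr6:137945134-137983476, began 61.8 kb downstream, with a signal of 13002, rank 2145 and 14 constituents over 38.3 kb. The other, chr6:137697477-137755424, ended 111.8 kb upstream, with a signal of 14203, rank 1928 and 16 constituents over 57.9 kb. Both had TNFAIP3 as the nearest protein-coding start, and no protein-coding gene lay within 50 kb of either. The downstream region overlapped the long non-coding RNAs SIMALR and LINC02865, and the upstream one LINC03004, LINC02539 and ENSG00000283265. On either side of the 50 kb limit, RELB was the last member inside, at 19.7 kb, and TNFAIP3 the first outside, at 61.8 kb.

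BCL10 and MALT1, the adaptor and the protease of the CBM complex, were the members farthest from any region. BCL10, chr1:85265776-85276632, had its nearest region 264.1 kb downstream, chr1:84923173-85001704, over MCOLN2 and DNAI3. That region was strong, with a signal of 33815 and rank 539, about that of the REL region, although it lay beyond the 50 kb window. For MALT1, chr18:58671465-58754477, the nearest region lay 1081 kb downstream over PMAIP1 (rank 894, signal 25665), and no region lay within 500 kb of its start. The median distance from a protein-coding gene to its nearest region was 182 kb, so RELA and TNFAIP3 lay nearer than the median gene, and NFKB1, BCL10 and MALT1 farther.

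**Figure D2:**
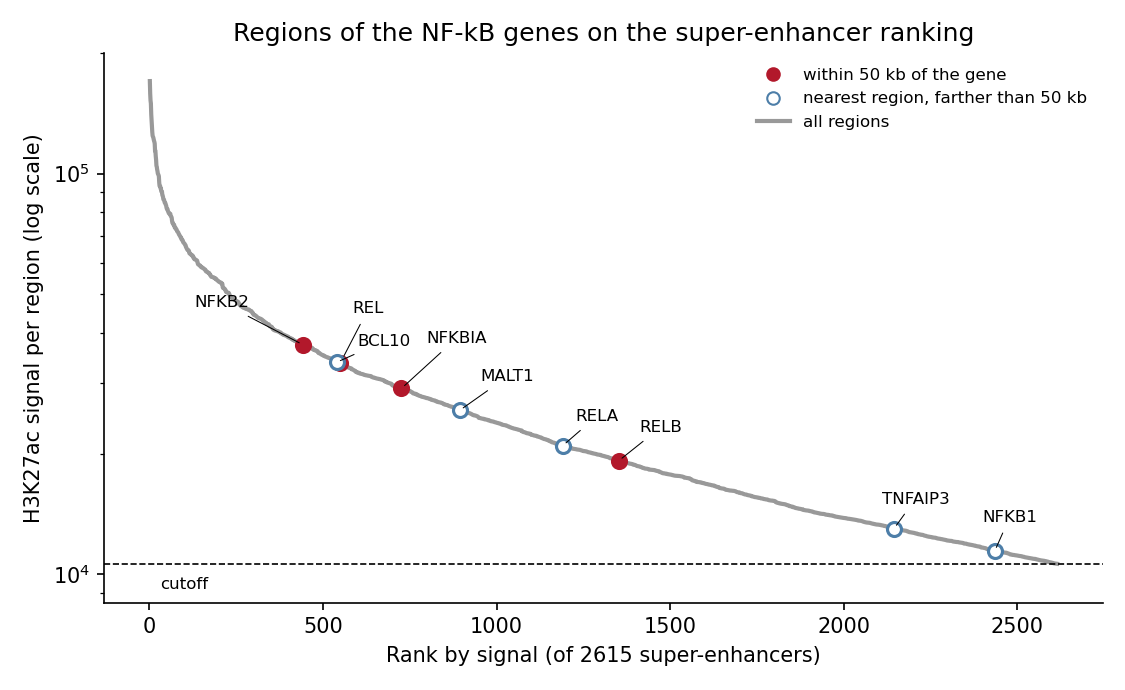
H3K27ac signal of each WT super-enhancer (y axis, log scale, unit not stated in the table) against its rank (x axis). Filled red points are the regions within 50 kb of NFKB2, REL, NFKBIA and RELB, open blue points the nearest region of the other 5 genes, and the dashed line the cutoff of 10617.

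The order of the 4 regions changed when signal was taken per base. By summed signal it ran NFKB2, REL, NFKBIA, RELB. By signal per bp, RELB came first with 0.586, followed by REL with 0.393, NFKB2 with 0.365 and NFKBIA with 0.2095. The RELB region lay at the percentile of 48.3 by sum but 80.9 by signal per bp, and the NFKBIA region at 72.2 by sum but 15.0 by signal per bp. REL and NFKB2 differed by little on either scale. With 1 pooled column, none of these orders has an error to set it against. The median percentile of the 4 regions was 75.6 by sum and 57.5 by signal per bp. The sum grows with the length of a region, and the NFKBIA region was longer than 91.8% of all regions and the RELB region longer than 16.3%. Constituent windows filled 9.24% of the NFKBIA region, 11.3% of the NFKB2 region, 12.2% of the REL region and 13.5% of the RELB region, beside a median of 11.2%.

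**Figure D3:**
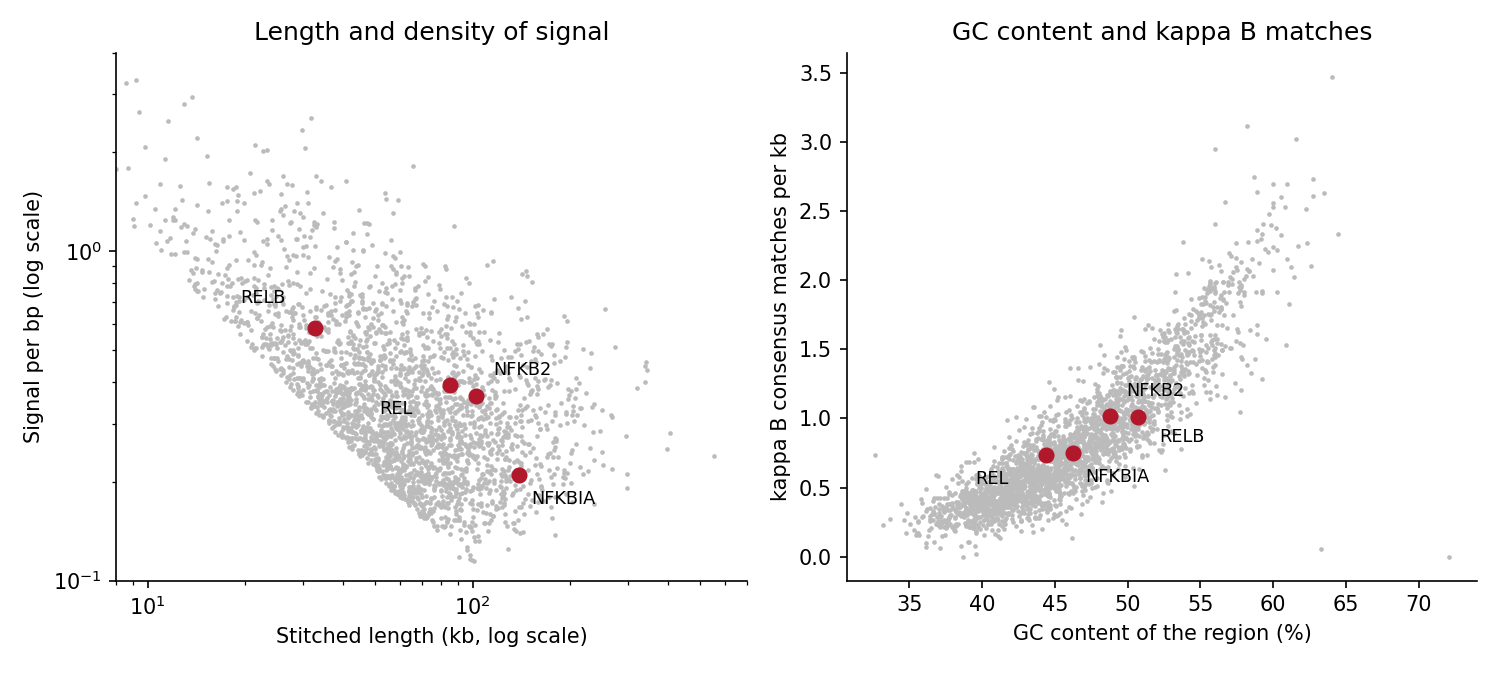
Left, signal per bp against stitched length (both log scales); right, kappa B consensus matches per kb against GC content; grey points are super-enhancers of WT cells (6 lie outside the plotted range on the left) and red points the regions of NFKB2, REL, RELB and NFKBIA. RELB is short and dense at 32.8 kb and 0.586 per bp, NFKBIA long and sparse at 138.9 kb and 0.2095 per bp, and on the right all 4 lie within the grey band that rises with GC content.

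Within the regions, kappa B consensus matches numbered 104 in that of NFKB2, 104 in that of NFKBIA, 63 in that of REL and 33 in that of RELB. Per kb this came to 1.01, 0.749, 0.737 and 1.01, beside a median of 0.714 over all regions. Across the 2615 regions the density of matches followed GC content (Spearman's rho = 0.89, as a description over regions that share 1 pooled signal and 1 genome), and the GC content of the NFKB2 and RELB regions, 48.8% and 50.7%, was above the median of 45.7%. The part of base composition in these densities was not tested. The stricter form occurred 2 times in the NFKB2 region, 3 times in the NFKBIA region and at no place in those of REL and RELB, whereas 45.4% of all regions held it at least once. REL had its match in the promoter, past the end of its region.

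The stricter matches inside these regions are shown as they read on the plus strand of hg38, with the match in capitals; the distal one of NFKBIA matches on the minus strand. One of the 2 in the NFKB2 region is the promoter match above, and 1 of the 3 in the NFKBIA region is its promoter match. In the NFKB2 region the remaining match lies at chr10:102324311-102324340, −69.8 kb from the NFKB2 start. Those of the NFKBIA region lie at chr14:35341432-35341461 and chr14:35403953-35403982, 63.3 kb and 0.786 kb downstream of the NFKBIA start. All 30 bases shown for the match near the NFKBIA start lie in an annotated UTR. The upstream region of TNFAIP3 held 1, at chr6:137700953-137700982, −166.3 kb from its start, and its nearer downstream region held none. Among the nearest regions of the other members, that of RELA held 1 and that of MALT1 held 2, and those of NFKB1 and BCL10 held none.
NFKB2 region: cagttttccaGGGAATTTCCtcttcctaac
NFKBIA region, distal: cctgaccccaGGAAAGTCCCtaagatttgt
NFKBIA region, near the start: caggcgcccaGGGACTTTCCgcccccctcc
TNFAIP3 upstream region: ccactaatcgGGGAGTTTCCcagaattatc

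The constituent windows at the downstream end of 2 regions can be read directly. In 2609 of 2615 regions the constituents added up to a multiple of 401 bp. The outermost 401 bp of such a region are therefore taken as 1 constituent. The NFKB2 window lay past the end of that gene, inside the body of another protein-coding gene. The central 201 bases are shown for NFKB2 (chr10:102413443-102413643, 19.4 kb downstream of its start, with overlapping kappa B matches in capitals) and for REL (chr2:60877713-60877913, −3.68 kb from its start, with no match).
NFKB2, last window: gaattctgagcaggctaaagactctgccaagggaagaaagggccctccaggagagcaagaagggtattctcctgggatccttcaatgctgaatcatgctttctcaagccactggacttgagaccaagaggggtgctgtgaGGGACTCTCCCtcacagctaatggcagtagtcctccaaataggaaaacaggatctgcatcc
REL, last window: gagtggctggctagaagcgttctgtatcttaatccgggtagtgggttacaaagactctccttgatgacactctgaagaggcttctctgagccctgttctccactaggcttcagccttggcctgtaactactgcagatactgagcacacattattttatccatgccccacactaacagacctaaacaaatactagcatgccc

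The summed length also held more 401-bp windows than the table counts as constituents in some regions: 29 against 25 for NFKB2 and 32 against 31 for NFKBIA, whose starts lie inside, and equal numbers, 26 and 11, for REL and RELB. The RELB region had equal numbers although the start of CLPTM1 lies inside it. Over all regions with whole multiples, windows exceeded constituents in 87.6% of 1182 with a protein-coding start inside or within 2500 bp and in 18.9% of 1427 without one. ROSE as run by the authors leaves peaks within 2500 bp of a start out of its constituents. Whether this bears on the extra windows was not tested. For NFKBIA the zone within 2500 bp of a start takes up 68.1% of the gene body and for NFKB2 29.7% and for NFKB1 2.16%. The signal is summed over the whole stitched region, this zone included where it lies inside.

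The members were then set within the wider pathway. Of 60 other pathway genes in 9 lists, 35 (58.3%) had a super-enhancer within 50 kb, at 31 distinct top regions, beside the 30.7% of all genes. The other 25 genes had none. For 20 of the 60 genes (33.3%) a region overlapped the gene body, beside 17.3% of all genes. As for the members, a region within 50 kb may lie over other genes, and its signal cannot be divided among them. Lists of this kind hold genes known from B cells and genes that share a locus, and no test of the lists was made.

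TNIP2, an A20-binding protein, had the highest region of these 60 genes, at rank 104 with a signal of 66255. That region was long, 234.9 kb with 67 constituents, and also overlapped FAM193A. Its signal per bp was 0.282, beside a median of 0.343 over all regions. Of the kinases and the lipase that act below the B-cell receptor 2 of 3 had a region: PRKCB, protein kinase C beta, at rank 650 and PLCG2, phospholipase C gamma 2, at rank 1058. BTK had none.

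Among the non-canonical genes 6 of 7 had a region, TNFRSF13C (the BAFF receptor) highest at rank 247, and TRAF2 had none. The TNFRSF13C region lay 9.6 kb from that gene and overlapped SREBF2 and SHISA8. BIRC2 and BIRC3 shared 1 region, so these 6 genes stood on 5 regions. Of the IKK kinases and their activators 4 of 8 had a region, TAB2 at rank 367 highest, and IKBKG, MAP3K7, TAB3 and MAP3K14 had none. The TAB2 region lay 17.1 kb from that gene and overlapped ZC3H12D. Of the other IkB proteins 2 of 5 had a region, NFKBIB at rank 830 highest, and NFKBIZ, NFKBID and BCL3 had none. The NFKBIB region lay 9.6 kb from that gene and overlapped HNRNPL, RINL and SIRT2, among others.

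Of the ubiquitin enzymes and other partners recruited by BCL10 and MALT1, 4 of 5 had a region, UBE2V1 at rank 363 highest, and TRAF6 had none. SHARPIN, at rank 604, led the 2 of 3 linear ubiquitin ligase subunits with a region, RNF31 being without. Of the deubiquitinases, A20 partners and other brakes 4 of 9 had one, TNIP2 highest, and CYLD, OTULIN, OTUD7B, RNF11 and N4BP1 had none. The RNA-decay genes RC3H1 and ZC3H12A, whose proteins MALT1 cuts, had none. Of 18 target genes 11 had a region, TRAF1 at rank 375 highest, on 9 regions since TNF, LTA and LTB shared 1, and BCL2L1, CCR7, CCL3, CCL4, CCL22, EBI3 and FAS had none.

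**Figure D4:**
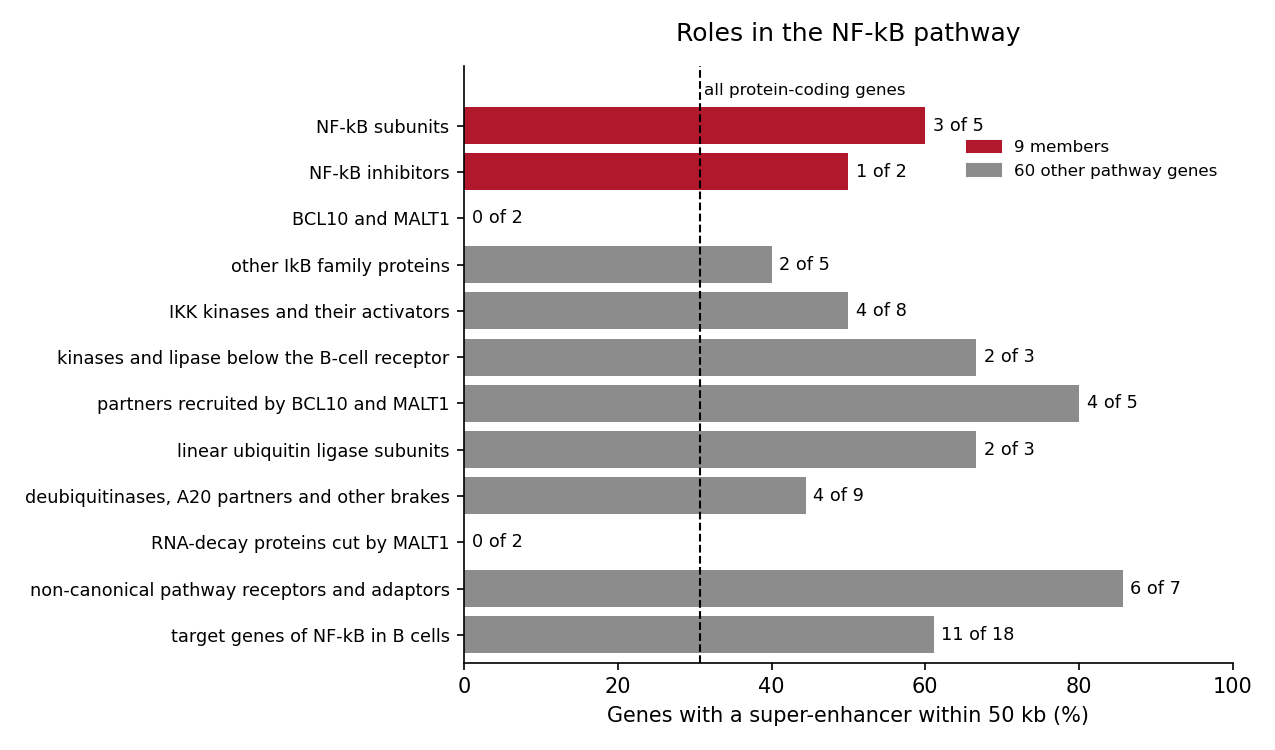
Percent of genes with a super-enhancer within 50 kb (x axis) in each role of the NF-kB pathway; red bars are the 9 members, grey bars the 60 other pathway genes, and the dashed line is all protein-coding genes at 30.7%. The non-canonical list is highest with 6 of 7, and BCL10 with MALT1, and RC3H1 with ZC3H12A, stand at 0 of 2.

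The count of members depended on the window. With the gene body alone 2 members were left, NFKB2 and NFKBIA, beside 17.3% of all genes. An extension of 25 kb gave the same 4 members as 50 kb, beside 25%, and one of 100 kb added RELA and TNFAIP3 to make 6, beside 39.7%. Counting regions within 50 kb of the start gave the same 4, beside 25.9%, as did asking that at least 50% of the region lie inside the window, beside 23.1%. RELB dropped out, leaving 3 members, when each region was given to the nearest start alone (13.1% of all genes) and when regions in the lower part of the ranking, below its median, were left out (16.8%).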

How the data were processed

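Per the study's methods, CUT&RUN reads were processed by the authors with nf-core cutandrun, depth was normalised on promoter reads, peaks came from SEACR with MACS2 summits, and super-enhancers of WT H3K27ac from ROSE. The submitters' processing notes give hg38 and also name DiffBind 3.6.1 and DESeq2. The deposited signal is 1 value per region from both WT libraries combined, and depth per library is not given in it. Regions were joined to 19970 protein-coding genes of GENCODE 44 on chromosomes 1 to 22 and X in Python 3.11.15 with pandas 2.3.3 and numpy 2.4.6; the overlap code was checked on simulated regions. All 9 members were named, with every region within 50 kb or the nearest. Of the pathway lists, the gene with the highest region and those without a region were named. PLCG2, BIRC2, BIRC3, TNF, LTA, LTB and the marker genes PAX5, BCL6, CD22 and LCK were named after their values were seen. The same holds for the genes that regions of the pathway genes overlap. Members and lists were chosen with earlier results of these data known. Pathway genes with a region that are not named are given by count alone, and some genes were left out of the lists and are not reported here. Percentiles are the percent of the 2615 regions with a lower value. Motifs were counted in hg38 and in the 250 bases before RefSeq starts.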

Additional observations from a re-analysis of the deposited data

How the results depend on the processing

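With 1 pooled signal column, no replicate could be left out and no value has a sampling interval. No paired analysis was possible because the table holds 1 pooled value per region and no test was made. With the gene body alone, members with a super-enhancer fell from 4 to 2 and other pathway genes from 35 to 20. That left 33.3% of the pathway genes, beside 17.3% of all genes. With the regions above the median rank the pathway genes numbered 19 (31.7%), beside 16.8% of all genes. Fewer bases or regions were searched by construction, for all genes alike. In settings added for the pathway genes after the data were seen, 16 were left when each region went to the nearest start alone. That was 26.7%, beside 13.1% of all genes. There were 30 within 50 kb of the start (50%, beside 25.9%) and 33 with at least 50% of the region inside the window (55%, beside 23.1%). The remaining settings moved the 2 counts by at most 1.5 times. The median percentile of the member regions was 75.6 by signal, 57.5 by signal per bp, 77.7 for regions that overlap a gene body and 63.3 with a 100 kb extension. For kappa B matches per length it was 62.6, and 39.8 with the stricter form, which most regions lack. The 39.8 describes no single region: NFKB2 and NFKBIA stood at 79.7 and 82.6. REL and RELB stood at 0, tied with all regions that lack a match. The highest signal of each member with a region was the same under all 10 alternatives that gave one.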
